A study of Mus musculus with 34 samples.

Results

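The matrix metalloproteases (MMP), the ADAMTS proteases and the tissue inhibitors of metalloproteases (TIMP) were followed as 1 gene family in polycystic mouse kidney. Members were chosen by symbol alone, as every gene in the deposited count tables named Mmp or Adamts plus a number, with a letter a or b where the symbol carries one, or Timp plus 1 digit. This gave 46 of the 23509 genes in each table, of which 23 were MMP, 19 ADAMTS and 4 TIMP genes. Enough reads for a test between groups were found for 39 of the 46 (18 MMP, 17 ADAMTS and 4 TIMP genes), among 15644 genes tested in all.

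Polyadenylated RNA of kidney was sequenced from 34 mice of the C57BL6 background, harvested on postnatal day (P) 28. *Pkd2*-KO mice, whose genotype the sample labels spell Pdk2KO, received either PBS at 0 mg per kg (n = 11) or RGLS4326 at 20 mg per kg (n = 11) under the skin on P10, P11, P12 and P19. Wild-type mice with no treatment (UNT, n = 12) gave the reference kidneys. RGLS4326 is an anti-miR, a modified oligonucleotide designed to pair with the seed of the microRNA miR-17. Both *Pkd2*-KO groups carried the knockout and the injections, so PBS against UNT compared genotype and injection together, and RGLS4326 against PBS compared the drug within the knockout. The PBS kidneys took part in both comparisons. The knockout carries *Pkd2* alleles flanked by loxP sites and a Cre driven by *Pkhd1*, per the study's text, so the deletion occurs in the tubule cells in which that driver acts, among them the collecting duct. The sex of these mice is not given in the sources used here. Whole kidney is a mixture, and a lower value in bulk RNA can come from fewer cells of a type or from less RNA per cell, which cannot be told apart here.

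MMPs are zinc proteases made as inactive precursors, and some are secreted while others are held in the cell membrane. Between them they cleave collagens, elastin, laminin, fibronectin and many cell surface proteins. ADAMTS proteases are secreted, carry thrombospondin repeats that bind matrix, and cut proteoglycans such as versican and aggrecan, trim the amino ends of procollagens, or shape the microfibrils that hold growth factors. TIMPs block the active site of these enzymes. In kidney, the family is known for turnover of the tubular basement membrane and of the interstitial matrix that accumulates in cystic and fibrotic disease.

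Many MMP genes are known to respond to AP-1, a pair of Fos and Jun family proteins that binds TGAGTCA or its reverse complement TGACTCA. The windows in which either heptamer lay are shown for the members that carried it, with the heptamer in capitals and 20 bases on each side, 5′ to 3′ on the strand of the gene (RefSeq promoters of build GRCm38.p6, each 250 bases before to 50 bases after a start site). All 7 lie in 1 cluster of 10 MMP genes at chr9:7272514-7699585. The Mmp13 window is on the plus strand at chr9:7272459-7272505, those of Mmp12, Mmp3, Mmp1a, Mmp10 and Mmp7 are on the plus strand at chr9:7347310-7347356, chr9:7445756-7445802, chr9:7464048-7464094, chr9:7502259-7502305 and chr9:7692007-7692053, and that of Mmp1b is on the minus strand at chr9:7388093-7388139.
Mmp13: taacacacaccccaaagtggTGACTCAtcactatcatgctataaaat
Mmp12: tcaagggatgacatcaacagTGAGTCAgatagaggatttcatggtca
Mmp1b: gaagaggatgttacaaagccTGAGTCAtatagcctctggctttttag
Mmp3: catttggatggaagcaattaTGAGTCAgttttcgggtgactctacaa
Mmp1a: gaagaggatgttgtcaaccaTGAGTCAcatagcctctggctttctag
Mmp10: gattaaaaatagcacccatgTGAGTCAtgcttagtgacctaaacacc
Mmp7: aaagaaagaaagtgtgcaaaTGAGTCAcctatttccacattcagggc

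The heptamer began 35 bases before the start site in *Mmp13*, 44 in *Mmp12*, 46 in *Mmp3*, 63 in *Mmp10* and *Mmp7*, 73 in *Mmp1a* and 93 in *Mmp1b*. *Mmp12* and *Mmp7* each have another RefSeq promoter that held no heptamer, and that of *Mmp12* covers the annotated start of the gene. A promoter was given for 32 of the 46 members, and 7 of these 32 (21.9%) held the heptamer on either strand, beside 5.95% of 27025 genes with a promoter of the same length. These are matches of letters in a window, not measured sites. *Mmp1a* and *Mmp1b* are paralogs with alike windows, so those 2 windows are not independent.

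The other sequence of interest is the seed of miR-17, the base stretch that RGLS4326 was designed to cover. The mature mouse microRNA (RefSeq, GRCm38.p6, chr14:115043684-115043706, plus strand) is shown with its seed, bases 2 to 8, in capitals. Below it stand the 3′ UTR matches of the 3 members with such a match that were lower after RGLS4326, of *Timp3*, and of *Mmp24*, which held the longest match. The match is in capitals, the bases are from GENCODE transcripts of GRCm38, and the matches lie at chr11:118301836-118301842 (*Timp2*, minus strand), chr8:95374236-95374242 (*Mmp15*, plus strand), chr4:155650663-155650669 (*Mmp23*, minus strand), chr10:86347590-86347596 (*Timp3*, plus strand) and chr2:155817746-155817753 (*Mmp24*, plus strand).
mmu-miR-17-5p: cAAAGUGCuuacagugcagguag
Timp2: cattagactttGCACTTTtaaaaaaaaaaa
Mmp15: tgtaacggggcCACTTTAcctccagaatct
Mmp23: cagcagataaaGCACTTTctctctga
Timp3: cgttttcattcCACTTTAgaaacacagtta
Mmp24: tactttgcaaaGCACTTTAttagctcacag

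Reads assigned to genes ranged from 17603122 to 54981992 per library, and no pair of libraries was identical. *Pkd2* lay between 220 and 338 CPM (the reads of a gene scaled to library size) in UNT, 98.0 and 215 in PBS and 170 and 237 in RGLS4326 kidneys, while *Pdk2*, the gene the labels spell, was at 217 to 365, 86.8 to 152 and 75.5 to 155. Markers of kidney tubules and glomeruli were read in every library, apart from *Pvalb* of the distal tubule, which was at 0 in 6 PBS and 2 RGLS4326 libraries. The share of uniquely aligned reads outside genes was 12.9% to 14.9% in UNT, 6.08% to 11.0% in PBS and 5.82% to 14.6% in RGLS4326 libraries. It was below every UNT library in all PBS libraries, while RGLS4326 replicates 5, 6, 7 and 11, at 13.9% to 14.6%, lay inside the UNT range and stood apart from the other 7 RGLS4326 libraries at 5.82% to 10.9%. The table names fell into 3 library sets, each with 3 or 4 mice of every group. Transcripts of adrenal cortex stood out in PBS replicates 2 and 11, with *Star* at 302 and 450 CPM against 1.01 to 16.8 in the other libraries. PBS replicate 9 was the library least like the median of its own group.

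Levels are given below as CPM scaled by TMM factors, as the lowest, median and highest mouse of a group. A difference was called where edgeR's quasi-likelihood test, fitted on all tested genes and all 34 libraries, gave a Benjamini-Hochberg adjusted p under 0.05. Differences are log2 fold changes ± standard error, and every adjusted p is from this test. The share of reads outside genes, the covariate named below, did not overlap between PBS and UNT. A fit with it cannot separate that share from the group, so its PBS against UNT values are an extrapolation.

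Most of the family stood higher in *Pkd2*-KO kidney. Of the 39 tested members, 29 were higher in PBS than in UNT, beside 43.1% of all tested genes, 8 were lower, beside 39.0% of all, and 2 (*Adamts20* and *Timp4*) were not called. With a log2 fold change beyond 0.5 also required, 28 were higher, against a background of 29.6%, and 5 lower, against 26.6%. The median log2 fold change of the members was 1.27, and that of all tested genes 0.04. In 25 of the 39 the PBS and UNT groups did not overlap at all, 22 of them with PBS above and 3 with PBS below, and 42.5% of all genes showed such a gap. Of the 39, 9 reached the filter minimum in fewer than 11 UNT libraries and needed knockout libraries to enter the test. They were *Mmp3*, *Mmp7*, *Mmp8*, *Mmp24*, *Mmp25*, *Mmp27*, *Adamts4*, *Adamts18* and *Timp1*. *Adamts4* and *Timp1* reached the minimum in 8 UNT libraries, so the filter required little of them. The others reached it in at most 1 UNT library, so a higher level in knockout kidney was required for their entry. Among the 30 that reached the minimum of 0.299 CPM in at least 11 UNT libraries, 20 were higher, 8 lower and 2 not called, the median was 0.96, and 13 lay above UNT and 3 below without overlap.

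**Figure D1:**
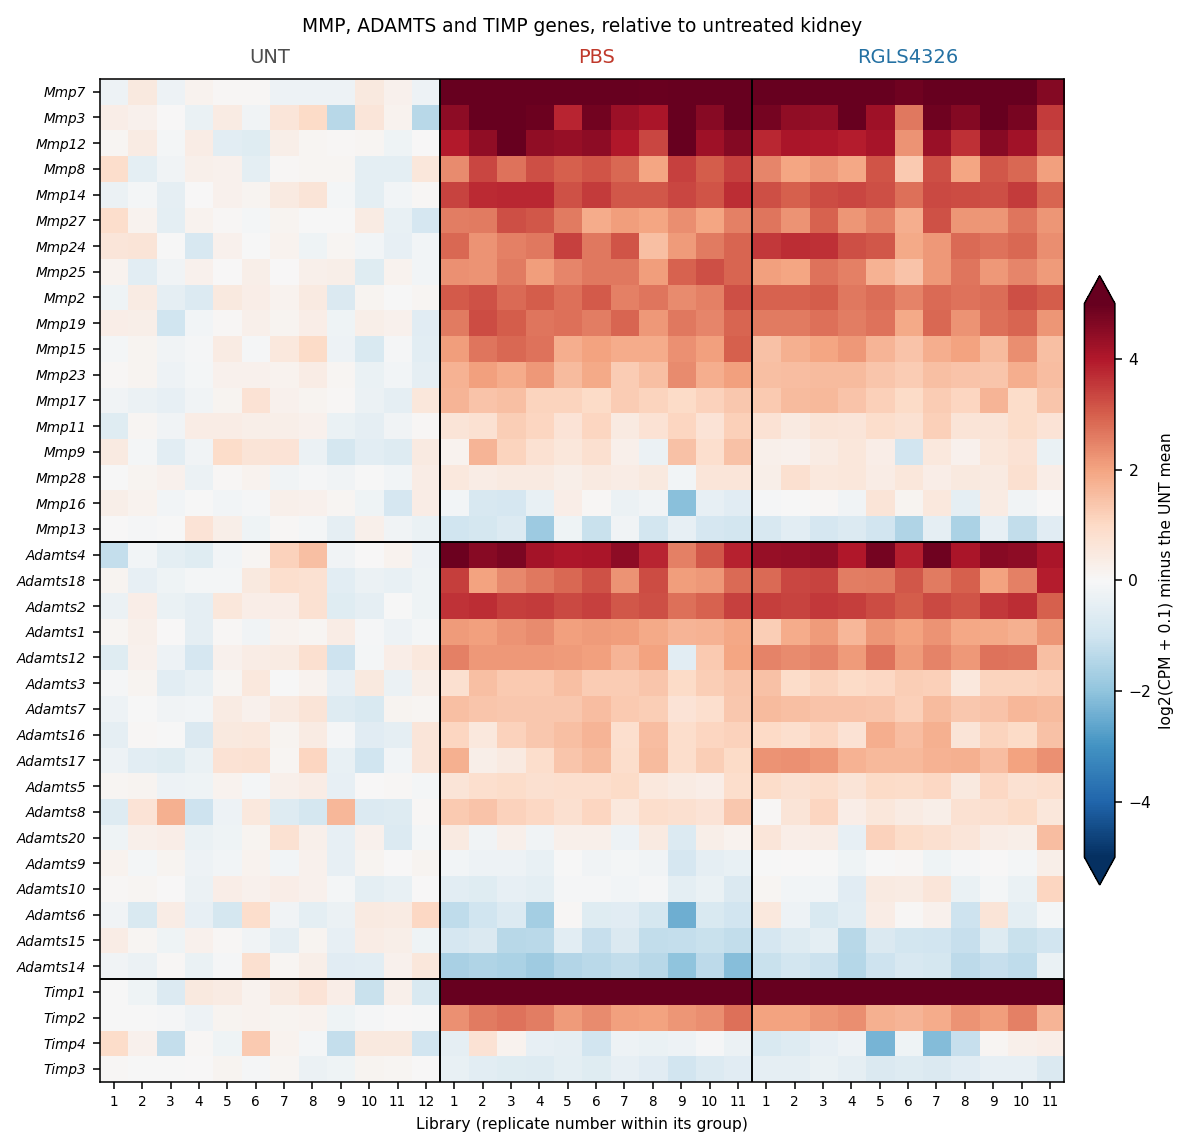
Level of the 39 tested members in each of the 34 kidneys, as log2(CPM + 0.1) minus the mean of the UNT kidneys; rows are genes in order of the PBS against UNT difference within MMP, ADAMTS and TIMP, columns are libraries, and colours saturate at 5. Most rows are red in both *Pkd2*-KO groups, and the blue rows are 2 MMP, 5 ADAMTS and 2 TIMP genes.

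The TIMP genes moved in opposite directions. *Timp1*, a secreted inhibitor that is induced in injured tissue, was at 0.113, 0.435 and 0.631 CPM in UNT, at 40.0, 61.5 and 103 in PBS, and at 20.2, 51.0 and 66.5 in RGLS4326 kidneys. No UNT kidney came near any *Pkd2*-KO kidney, and the fitted difference between PBS and UNT was 7.36 ± 0.25 (adjusted p = 3.68e-24). *Timp1* reached the filter minimum in 8 of 12 UNT libraries and was tested through the knockout groups, so this p is no independent support. *Timp2*, which inhibits MMPs and also carries the MMP2 precursor to its activator, was at 84.8, 102 and 115 CPM in UNT, 417, 517 and 684 in PBS and 329, 411 and 587 in RGLS4326 kidneys. It rose by 2.38 ± 0.10 in PBS (adjusted p = 7.92e-22), again with no overlap.

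*Timp3*, the inhibitor that binds to matrix and acts on ADAMTS and ADAM proteases as well as MMPs, went the other way. Its level was 1632, 2000 and 2180 CPM in UNT, 1030, 1322 and 1517 in PBS and 1184, 1447 and 1576 in RGLS4326 kidneys. Every PBS kidney lay below every UNT kidney, and the difference was -0.58 ± 0.07 (adjusted p = 8.22e-10). *Timp4*, another secreted inhibitor, was at 0.507, 1.40 and 3.34 CPM in UNT, 0.611, 1.03 and 2.18 in PBS and 0.173, 0.932 and 1.65 in RGLS4326 kidneys, and its difference between PBS and UNT was -0.41 ± 0.29 (adjusted p = 0.192). *Timp1*, *Timp3* and *Timp4* each lie inside a synapsin gene on the other strand. The annotated exons of *Timp3* and *Timp4* share 1733 and 90 bases with *Syn3* and *Syn2*, and the strand setting of the counting was not stated, so these 2 are uncertain to that extent.

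**Figure D2:**
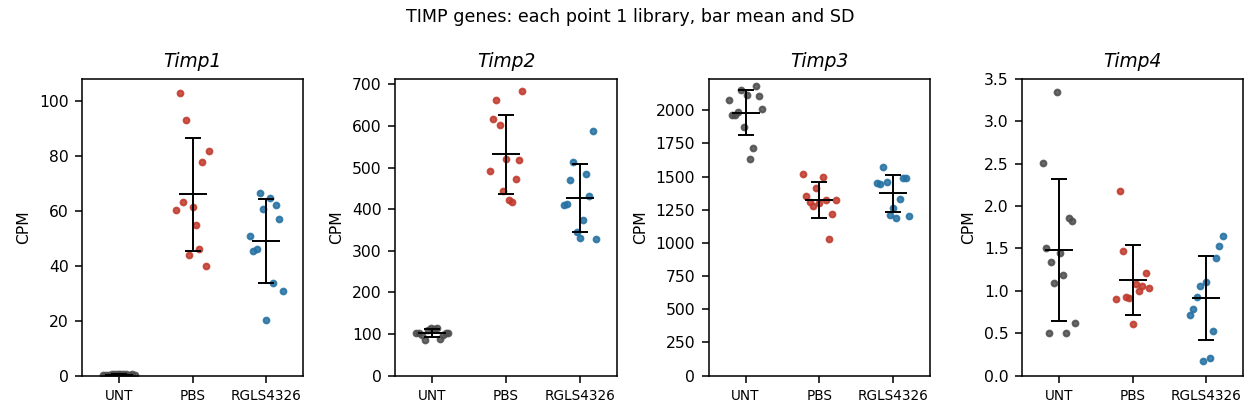
CPM of the 4 TIMP genes in each kidney (points) with the group mean and SD (bars), each panel with its own axis from 0. *Timp1* and *Timp2* separate UNT from both *Pkd2*-KO groups upward, *Timp3* separates downward, and the *Timp4* groups overlap.

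Divided by exon length, so that genes can be set side by side, the inhibitor pool changed its makeup. In RPKM, which is CPM divided by the exon length in kilobases, the 4 TIMP genes summed to 270 ± 21.1 (SD, n = 12) in UNT, 374 ± 43.0 (n = 11) in PBS and 333 ± 44.3 (n = 11) in RGLS4326 kidneys. *Timp3* made up 90.0% ± 1.25 of that sum in UNT and 43.9% ± 6.02 in PBS. The share of *Timp1* was 0.166% ± 0.0773 in UNT and 19.6% ± 4.53 in PBS, and that of *Timp2* was 9.78% ± 1.20 and 36.4% ± 3.63. After RGLS4326 the shares were 16.3% ± 4.46 for *Timp1*, 32.7% ± 2.97 for *Timp2* and 50.9% ± 4.10 for *Timp3*, and the ranges of PBS and RGLS4326 kidneys overlapped for each of the 3.

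Of the 18 tested MMP genes, 16 were higher in PBS than in UNT, beside 43.1% of all tested genes, and 2 were lower, beside 39.0%. Without the 6 that entered the test through the knockout groups, 10 of 12 were higher and 2 lower. The gelatinase *Mmp2*, which degrades type IV collagen and denatured collagen, was at 12.8, 23.2 and 30.2 CPM in UNT and at 111, 151 and 199 in PBS kidneys, a difference of 2.81 ± 0.13 (adjusted p = 3.90e-20). *Mmp14*, the membrane-type protease that activates the MMP2 precursor at the cell surface, was at 14.9, 20.6 and 33.2 CPM in UNT and at 180.3, 216 and 290.4 in PBS, a difference of 3.42 ± 0.12 (adjusted p = 2.23e-23). Neither gene overlapped between the groups. *Mmp9*, the other gelatinase and a typical product of leukocytes, did overlap, at 1.29, 2.25 and 4.75 CPM in UNT and 1.99, 4.43 and 8.22 in PBS, with a difference of 0.82 ± 0.23 (adjusted p = 0.00133). The *Mmp9* call ended in library set 2 alone (0.025, adjusted p = 0.945) and with the share of reads outside genes as a covariate (0.47, adjusted p = 0.281).

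Some MMP genes were hardly read in UNT kidney, and of these *Mmp7*, *Mmp3* and *Mmp8* passed the filter through the knockout groups. *Mmp7*, or matrilysin, a small epithelial protease without the usual carboxy-terminal domain, had 9 reads in all 12 UNT libraries together and was at 0 in 6 of them, with a highest level of 0.0681 CPM. In PBS kidneys it lay at 3.51, 10.4 and 32.1 CPM, and the fitted difference of 9.33 ± 0.54 (adjusted p = 8.78e-18) rests on those few UNT reads. *Mmp12*, the macrophage elastase, was at 0.612, 1.05 and 1.37 CPM in UNT and 11.0, 23.7 and 40.3 in PBS, a difference of 4.56 ± 0.22 (adjusted p = 6.69e-20). *Mmp3*, or stromelysin-1, a protease of broad range that also activates other MMP precursors, was at most 0.404 CPM in UNT and at least 3.52 in PBS, and differed by 5.25. *Mmp8*, the collagenase of neutrophils, was at most 0.161 CPM in UNT and at least 0.451 in PBS, and differed by 4.43.

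Beside these genes, markers of other cell types also stood apart between PBS and UNT. The 5 macrophage markers read here summed to 90.7 to 144 CPM in UNT and 664 to 2059 in PBS, and 5 of 5 were higher, *Lyz2*, the lysozyme of myeloid cells, by 5.52. Of the 6 neutrophil markers, 3 could be tested and all 3 were higher, with a summed level of 1.60 to 7.41 CPM in UNT and 7.85 to 40.3 in PBS, while the granule genes *Mpo* and *Elane* were at 0 in 8 and 7 of the UNT libraries. All 6 fibroblast and pericyte markers were higher, summing to 424 to 1078 CPM in UNT and 2195 to 4665 in PBS. The proximal tubule markers went the other way in 7 of 7, from 9296 to 13060.0 CPM in UNT down to 744 to 2796 in PBS. T cell markers were higher in 3 of 4 and smooth muscle markers in 3 of 4, while podocyte markers were lower in 4 of 4, those of the thick ascending limb and of the distal tubule in 3 of 3 each, and endothelial markers split into 2 higher and 3 lower. All 3 hepatocyte markers, read at 41.6 to 156 CPM in UNT and 21.5 to 113 in PBS, were lower. The part of these cell populations in the protease differences was not tested.

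Among the remaining MMP genes, *Mmp19*, a protease of basement membrane proteins, was at 0.829, 2.02 and 2.29 CPM in UNT and 8.21, 11.8 and 17.7 in PBS, a difference of 2.75 ± 0.14 (adjusted p = 5.60e-19). *Mmp15*, a membrane-type relative of *Mmp14*, was at 2.59, 4.26 and 8.83 CPM against 16.2, 19.3 and 35.9, a difference of 2.29 ± 0.17 (adjusted p = 1.30e-14). *Mmp23* was at 6.85, 9.82 and 12.0 CPM against 22.3, 34.1 and 48.0, a difference of 1.85 ± 0.10 (adjusted p = 2.69e-18). These 3 did not overlap between PBS and UNT. *Mmp27* (3.30), *Mmp24* (3.25), *Mmp25* (3.05), *Mmp17* (1.23), *Mmp11* (0.87) and *Mmp28* (0.41) were also higher, and of these 6 only *Mmp28* overlapped, whose call ended in library set 3 alone and with the covariate. *Mmp27*, *Mmp24* and *Mmp25* passed the filter through the knockout groups, so their higher level and lack of overlap were in part required and are no independent support. *Mmp25* and *Mmp17* are the membrane proteases held by a lipid anchor. The exons of *Mmp11*, *Mmp19*, *Mmp24* and *Mmp28* overlap another counted gene on the other strand, so their values are uncertain to that extent.

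*Mmp13* and *Mmp16* were the MMP genes with lower levels in PBS. *Mmp13*, the collagenase that cleaves type II collagen in cartilage, was at 2.56, 3.42 and 5.64 CPM in UNT, 0.929, 1.86 and 3.10 in PBS and 1.12, 1.97 and 2.63 in RGLS4326 kidneys. The PBS difference was -0.81 ± 0.16 (adjusted p = 3.00e-05), with overlap, and the *Mmp13* call ended in library set 2 alone (-0.74, adjusted p = 0.0678), in set 3 alone (-0.65, adjusted p = 0.0532) and with the covariate (-0.53, adjusted p = 0.0746). *Mmp16*, a membrane-type protease of the *Mmp14* group, was at 0.418, 0.857 and 1.12 CPM in UNT and 0.121, 0.620 and 1.08 in PBS, a difference of -0.45 ± 0.19 (adjusted p = 0.032). That call was lost when any 1 of UNT replicates 7 and 12 and PBS replicates 2, 3 and 11 was left out, with adjusted p up to 0.0586, and in library sets 2 and 3 alone, and it turned to 0.14 with the covariate.

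The 10 MMP genes of the chromosome 9 cluster, 427072 bases long, differed widely from neighbour to neighbour. Reading along the chromosome, *Mmp13* was lower in PBS, *Mmp12* and *Mmp3* were higher, and *Mmp8*, *Mmp27* and *Mmp7* were higher as well. *Mmp1b* and *Mmp1a*, the interstitial collagenases of mouse, had no read in any of the 34 libraries, where 3 reads would have been 0.0546 CPM in the deepest library and 0.170 in the shallowest. *Mmp10* and *Mmp20* stayed under the filter, yet *Mmp10* was at 0 in 10 of 12 UNT libraries and in 0 of 11 PBS libraries, with 3, 63 and 33 reads in all in UNT, PBS and RGLS4326. *Mmp20*, the enamel protease, had 4, 66 and 50 reads. Of the 7 members with the AP-1 heptamer in front, *Mmp12*, *Mmp3* and *Mmp7* were higher, *Mmp13* was lower, *Mmp10* was under the filter and *Mmp1a* and *Mmp1b* were at 0. The exons of *Mmp12* and *Mmp1b* overlap by 157 bases on opposite strands.

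**Figure D3:**
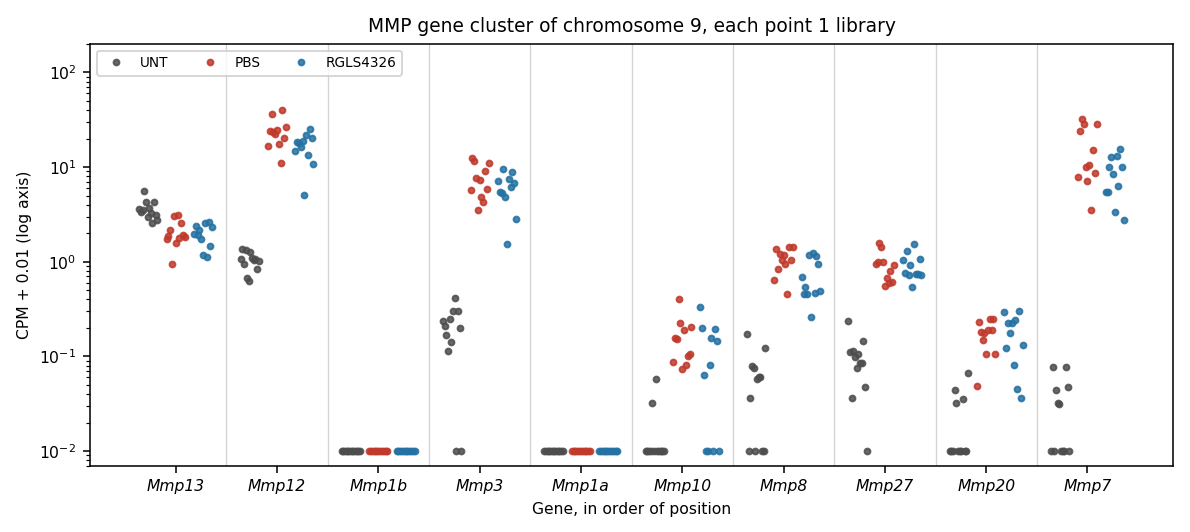
CPM + 0.01 on a log axis for the 10 MMP genes of the chromosome 9 cluster in order of position, each point 1 kidney, coloured by group; points on the lowest line are kidneys with 0 reads. *Mmp12*, *Mmp3*, *Mmp8*, *Mmp27* and *Mmp7* sit higher in both *Pkd2*-KO groups, *Mmp13* sits lower, and *Mmp1a* and *Mmp1b* are at 0 throughout.

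Of the 17 tested ADAMTS genes, 11 were higher in PBS than in UNT, 5 were lower and *Adamts20* was not called, beside the same 43.1% and 39.0% of all tested genes. Without *Adamts4* and *Adamts18*, which entered through the knockout groups, 9 of 15 were higher and 5 lower. *Adamts1*, a protease of versican and aggrecan, was at 48.3, 67.7 and 84.5 CPM in UNT and 217, 276 and 337 in PBS, a difference of 2.03 ± 0.10 (adjusted p = 1.05e-19). *Adamts2*, the main procollagen N-proteinase, which trims fibrillar collagens before they assemble, was at 9.97, 14.1 and 25.7 CPM in UNT and 102, 163 and 196 in PBS, a difference of 3.27 ± 0.14 (adjusted p = 4.29e-21). No PBS kidney overlapped an UNT kidney for either. *Adamts4*, an aggrecanase, differed by 4.16 from a level of at most 1.39 CPM in UNT, and *Adamts18* by 3.50 from at most 0.217 CPM. The exons of *Adamts4* and *Adamts7* overlap another counted gene on the other strand.

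*Adamts14* belongs to the same procollagen group as *Adamts2* and *Adamts3*, and it fell where they rose. It was at 4.97, 7.45 and 12.9 CPM in UNT and 1.63, 2.55 and 3.13 in PBS, a difference of -1.64 ± 0.15 (adjusted p = 1.80e-12), with every PBS kidney below every UNT kidney. *Adamts3* rose by 1.27. *Adamts7* and *Adamts12*, which cleave cartilage oligomeric matrix protein, rose by 1.24 and 1.86. In PBS replicate 9 *Adamts12* was at 2.82 CPM, the lowest of the knockout kidneys and within the UNT range of 1.95 to 7.19 CPM.

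Among the proteoglycan-cleaving members, *Adamts5* (0.72) and *Adamts8* (0.71) rose and *Adamts15* and *Adamts9* fell. *Adamts15*, a versican protease, was at 30.1, 43.1 and 53.4 CPM in UNT and 16.0, 18.5 and 28.8 in PBS, without overlap, a difference of -1.04 ± 0.11 (adjusted p = 2.08e-10). *Adamts9* was at 34.7, 48.6 and 54.4 CPM against 26.0, 38.8 and 45.1, a difference of -0.29 ± 0.08 (adjusted p = 8.34e-04), a call that ended in library set 2 alone (-0.25, adjusted p = 0.0581) and with the covariate (-0.083, adjusted p = 0.549). *Adamts8* and *Adamts15* are neighbours on chromosome 9 and differed in opposite directions, whereas *Adamts1* and *Adamts5*, neighbours on chromosome 16, were both higher. *Adamts8* ranged from 0.791 to 6.15 CPM within UNT, more widely than within PBS (2.51 to 4.80), and its call ended in library sets 1 and 3 alone and with the covariate.

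*Adamts6* and *Adamts10*, a pair of related proteases of the fibrillin microfibrils, were lower in PBS. *Adamts6* was at 5.12, 8.49 and 19.8 CPM in UNT and 1.67, 5.08 and 10.0 in PBS, a difference of -0.99 ± 0.24 (adjusted p = 3.39e-04), which was -0.59 (adjusted p = 0.188) in library set 2 alone and -0.090 (adjusted p = 0.832) with the covariate. *Adamts10* was at 43.7, 63.1 and 77.8 CPM against 37.5, 46.7 and 59.6, a difference of -0.36 ± 0.14 (adjusted p = 0.0185). With the share of reads outside genes as a covariate the *Adamts10* difference turned to 0.50, past the threshold in the other direction. That share did not overlap between PBS and UNT, so this fit cannot separate it from the group. Without PBS replicates 2 and 11 the *Adamts10* difference was -0.29 (adjusted p = 0.067). In library set 3 alone it was -0.16 (adjusted p = 0.619). *Adamts16* (1.15) and *Adamts17* (1.06) were higher, the *Adamts17* call ending in library set 2 alone (0.50, adjusted p = 0.0628). *Adamts13*, which cleaves von Willebrand factor, was under the filter with 136, 44 and 59 reads in all in UNT, PBS and RGLS4326, and *Adamts19* and *Mmp21* had at most 9 and 2 reads in any library.

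On the per-length scale, *Timp3* led the family in each group, at 243 ± 20.9 RPKM in UNT, 163 ± 16.3 in PBS and 169 ± 17.1 in RGLS4326. It was followed in UNT by *Timp2* (26.3 ± 2.45), *Adamts1* (12.6 ± 1.93), *Adamts10* (7.56 ± 1.34) and *Mmp2* (6.57 ± 1.79), the last 2 lying within 1 SD of each other. In PBS the order after *Timp3* was *Timp2* (136.5 ± 24.4), *Timp1* (74.3 ± 23.2), *Adamts1* (51.4 ± 6.94), *Mmp2* (46.2 ± 9.26) and *Mmp14* (38.6 ± 7.48). *Timp3* and *Timp2*, and likewise *Timp1*, *Adamts1*, *Mmp2* and *Mmp14* from 1 to the next, differed by less than the sum of their SDs. The summed MMP level was 25.3 ± 4.35 RPKM in UNT, 146 ± 30.3 in PBS and 125 ± 15.5 in RGLS4326, and the summed ADAMTS level ranged from 31.5 to 45.8 RPKM in UNT, 72.8 to 110.5 in PBS and 83.0 to 116 in RGLS4326.

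Between RGLS4326 and PBS, members were called in both directions. Of the 39 tested members, 7 were higher after RGLS4326, beside 15.3% of all tested genes, and 6 were lower, beside 18.5% of all. With a log2 fold change beyond 0.5 also required, 6 were higher and 4 lower, against 4.62% and 3.42%. In 0 of the 39 did the groups stand clear of each other, as in 0.0639% of all genes, and by the unadjusted p under 0.05 the counts were 8 higher and 10 lower. The 26 members that were not called had log2 fold changes from -0.55 to 0.46. The median over the members was 0.02, and over all tested genes 0.00.

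**Figure D4:**
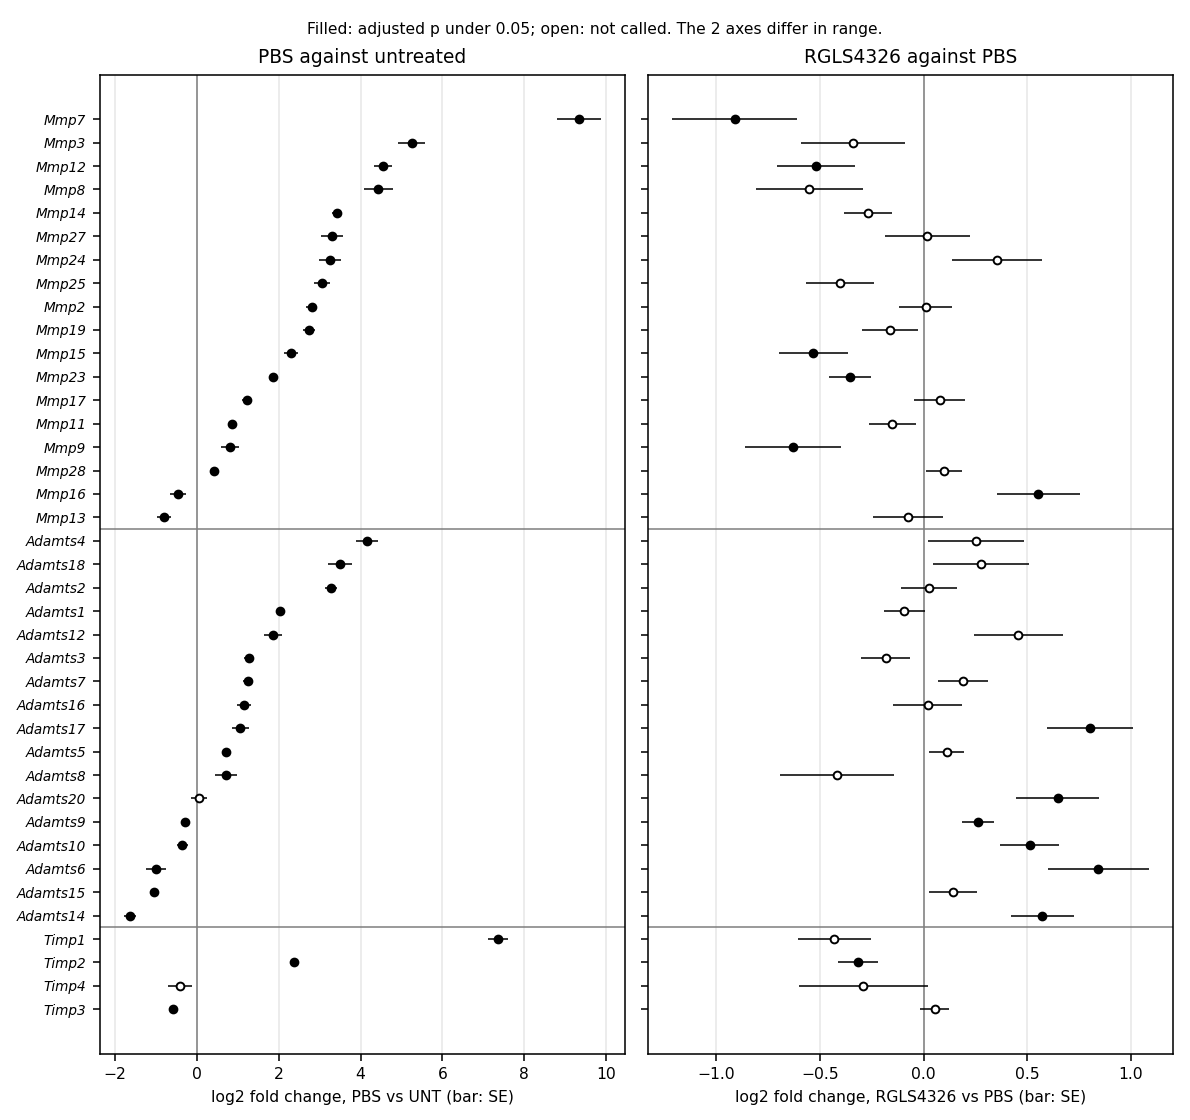
Log2 fold change with its standard error for the 39 tested members, PBS against UNT on the left and RGLS4326 against PBS on the right, on axes of different range; filled points have an adjusted p under 0.05. On the left 29 filled points lie above 0 and 8 below, and on the right 7 lie above 0 and 6 below, all within 1 unit of 0.

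The members called in each direction fell mostly into different families. Of all tested genes, 15.3% were higher and 18.5% lower. Of the ADAMTS genes, 6 of 17 (35.3%) were higher and 0 lower. Their counts were 7 and 0 at an unadjusted p under 0.05 and 6 and 0 by DESeq2. Of the MMP genes, 1 of 18 (5.56%) was higher and 5 (27.8%) were lower, with 1 and 8 unadjusted and 1 and 5 by DESeq2. The unadjusted and DESeq2 counts are given without a share over all genes. *Timp2* was the 1 TIMP gene called. The median log2 fold change was 0.25 over the ADAMTS and -0.21 over the MMP genes. Whether the families differ was not tested. Markers of several kidney cell types were higher after RGLS4326 alongside the ADAMTS genes, in 4 of 4 for podocytes (summed level 204 to 315 CPM in PBS and 275 to 346 in RGLS4326), 4 of 5 for endothelium (309 to 475 and 418 to 519), 5 of 7 for proximal tubule (744 to 2796 and 1841 to 3067), 2 of 3 for the thick ascending limb (2378 to 4605 and 3572 to 5120) and 2 of 3 for the distal tubule (273 to 485 and 388 to 747). Of the fibroblast and pericyte markers, 1 of 6 was higher, *Pdgfra*, by 0.53, with a summed level of 2195 to 4665 CPM in PBS and 3046 to 4509 in RGLS4326. Markers of the collecting duct (3 of 4), macrophages (3 of 5) and T cells (3 of 4) were lower. The part of these cell types in the ADAMTS differences was not tested.

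The calls depended on few libraries, while most differences kept much of their size. Without RGLS4326 replicates 5, 6, 7 and 11, 1 member was called higher, beside 1.13% of the genes tested in that fit, and 0 lower, beside 0.966%, with 7 higher and 6 lower at an unadjusted p under 0.05. The 1 was *Adamts17*, at 0.86 (adjusted p = 0.0486). *Adamts10* was at 0.14, *Adamts20* at 0.28, *Timp2* at -0.17 and *Adamts6* at 0.73 in that fit, and *Adamts14* and *Mmp16* were at 0.40 and 0.38 (adjusted p = 0.126 and 0.275). The differences of the remaining 6 in that fit were -0.77 for *Mmp7*, -0.49 for *Mmp9*, -0.40 for *Mmp12*, -0.43 for *Mmp15*, -0.31 for *Mmp23* and 0.23 for *Adamts9*, each in the direction of the fit on all libraries, with adjusted p from 0.108 to 0.22. That fit held 7 RGLS4326 kidneys in place of 11.

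The libraries with adrenal transcripts bear on these counts as well. Without PBS replicates 2 and 11 the 6 ADAMTS genes were called again, beside 7.67% of the genes tested in that fit, and 1 of the 6 lower members, *Mmp23*, remained, beside 10.4%. PBS replicates 2, 3, 4 and 11 held the highest PBS values of *Mmp7* (24.1 to 32.1 CPM), *Mmp15* (29.0 to 35.9) and *Timp2* (601 to 684). The calls of *Mmp7*, *Mmp9*, *Mmp12*, *Mmp15*, *Mmp16* and *Timp2* were lost in that fit, with differences of -0.69, -0.43, -0.51, -0.40, 0.48 and -0.25.

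*Adamts6* rose from 1.67, 5.08 and 10.0 CPM in PBS to 4.57, 8.88 and 14.9 in RGLS4326 kidneys, a difference of 0.84 ± 0.25 (adjusted p = 0.0115). Within library sets 1, 2 and 3 the difference was 0.83, 0.82 and 1.02. Its level after RGLS4326 did not differ detectably from UNT (-0.15 ± 0.24, adjusted p = 0.577). *Adamts10* went from 37.5, 46.7 and 59.6 CPM to 41.8, 58.2 and 129, a difference of 0.51 ± 0.14 (adjusted p = 0.00923), and 0.36, 0.68 and 0.60 within the sets. RGLS4326 replicates 5, 6, 7 and 11 lay at 80.8 to 129 CPM of *Adamts10*, above every PBS kidney, and the other 7 at 41.8 to 65.2, overlapping PBS.

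*Adamts14* rose from 1.63, 2.55 and 3.13 CPM to 2.71, 3.49 and 5.83 (0.57 ± 0.15, adjusted p = 0.00696, and 0.48, 0.56 and 0.74 within the sets). It still lay below UNT, by -1.07 ± 0.15 (adjusted p = 3.42e-08). *Adamts9*, which also cleaves versican, rose from 26.0, 38.8 and 45.1 CPM to 40.2, 45.6 and 56.1 (0.26 ± 0.08, adjusted p = 0.0132, and 0.18, 0.13 and 0.49 within the sets). These 4 genes were the ones lower in PBS than in UNT that were higher again after RGLS4326, together with *Mmp16*. Both differences use the same PBS kidneys, so they are not independent, and PBS values low by chance would move both at once. The same holds in reverse for members higher in PBS and lower after RGLS4326.

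*Adamts17* and *Adamts20* were not lower in PBS to begin with. *Adamts17*, a relative of *Adamts19* linked to fibrillin matrix, was at 0.681, 1.26 and 3.15 CPM in UNT, 1.82, 2.96 and 5.25 in PBS and 4.43, 5.20 and 7.58 in RGLS4326 kidneys. The drug difference was 0.80 ± 0.21 (adjusted p = 0.00619), with 1.17, 0.47 and 0.74 within the sets, so its level after RGLS4326 was further from UNT (1.86 ± 0.21, adjusted p = 5.30e-10). *Adamts20* was at 0.304, 0.558 and 0.991 CPM in UNT, 0.303, 0.671 and 0.783 in PBS and 0.388, 0.872 and 1.81 after RGLS4326, a difference from PBS of 0.65 ± 0.20 (adjusted p = 0.0156), with 0.13, 1.05 and 0.75 within the sets. The same 4 RGLS4326 libraries held 1.03 to 1.81 CPM of *Adamts20* and the other 7 held 0.388 to 0.893. Against UNT it differed by 0.70 ± 0.20 (adjusted p = 0.00162), a call that ended without the 4.

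*Mmp16* was the 1 MMP gene called higher, from 0.121, 0.620 and 1.08 CPM in PBS to 0.593, 0.844 and 1.34 (0.55 ± 0.20, adjusted p = 0.033, and 0.62, 0.55 and 0.71 within the sets). Leaving out any 1 of PBS replicates 2, 3 and 11 or RGLS4326 replicates 5, 7 and 9 ended this call, with adjusted p up to 0.0685. On the other side, *Mmp7* fell from 3.51, 10.4 and 32.1 CPM to 2.73, 8.52 and 15.6, a difference of -0.91 ± 0.30 (adjusted p = 0.021), and -1.34, -0.73 and -0.68 within the sets. Its lowest level after RGLS4326 was above the highest UNT level of 0.0681 CPM, a gap that its entry through the knockout groups required in part.

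*Mmp9* fell from 1.99, 4.43 and 8.22 CPM to 1.25, 3.16 and 4.19 (-0.63 ± 0.23, adjusted p = 0.035, and -0.77, -0.51 and -0.67 within the sets), a level not detectably different from UNT (0.18 ± 0.23, adjusted p = 0.469). *Mmp12* fell from 11.0, 23.7 and 40.3 CPM to 5.09, 17.9 and 25.4 (-0.52 ± 0.19, adjusted p = 0.0321, and -0.60, -0.51 and -0.49 within the sets). With 1 library left out at a time the differences stayed at -0.71 to -0.53 for *Mmp9* and -0.60 to -0.41 for *Mmp12*, while the calls were lost in some fits. That of *Mmp9* ended without PBS replicate 2, 9 or 11 or RGLS4326 replicate 6 or 11, with adjusted p up to 0.0782, and that of *Mmp12* without PBS replicate 3, 9 or 11 or RGLS4326 replicate 6 or 11, with adjusted p up to 0.0867. Macrophage markers moved alongside, with 3 of 5 lower after RGLS4326, *Cd68*, a lysosomal protein of macrophages, by -0.80, and a summed level of 639 to 1302 CPM against 664 to 2059 in PBS. T cell markers were lower in 3 of 4, with a median log2 fold change of -0.69 and a summed level of 6.16 to 14.3 CPM against 9.66 to 27.8 in PBS. The 3 tested neutrophil markers were not called in either direction, with a median of -0.82 and a summed level of 10.7 to 21.1 CPM against 7.85 to 40.3. The part of these cells in the *Mmp9* and *Mmp12* differences was not tested.

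*Mmp15* fell from 16.2, 19.3 and 35.9 CPM to 12.1, 15.7 and 22.7 (-0.53 ± 0.17, adjusted p = 0.0167, and -0.71, -0.48 and -0.46 within the sets). *Mmp23* fell from 22.3, 34.1 and 48.0 CPM to 22.7, 26.8 and 33.1 (-0.36 ± 0.10, adjusted p = 0.0102, and -0.32, -0.35 and -0.41 within the sets). *Timp2* fell by 0.32 ± 0.10 on the log2 scale (adjusted p = 0.0137), with -0.38, -0.49 and -0.19 within the sets. RGLS4326 replicates 5, 6, 7 and 11 held the 4 lowest *Timp2* values, 329 to 373 CPM, and the other 7 lay at 411 to 587. All 3 remained above UNT, by 1.76 ± 0.17, 1.50 ± 0.10 and 2.06 ± 0.10. Collecting duct markers moved the same way as these genes, higher in 4 of 4 in PBS against UNT and lower in 3 of 4 after RGLS4326, with *Fxyd4* at 1.55 and -0.59. Macrophage markers (5 of 5 higher, then 3 of 5 lower) and T cell markers (3 of 4, then 3 of 4) did so as well. The part of these cell types was not tested.

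The other inhibitors were not called. The difference between RGLS4326 and PBS was -0.43 ± 0.17 for *Timp1* (adjusted p = 0.0533), 0.05 ± 0.07 for *Timp3* (adjusted p = 0.558) and -0.29 ± 0.31 for *Timp4* (adjusted p = 0.47). *Timp1* was near the threshold, and leaving out any 1 of 9 libraries brought it under, with an adjusted p down to 0.0304. Those 9 were PBS replicates 5, 7, 8 and 10, RGLS4326 replicates 4, 7, 9 and 10 and UNT replicate 10. In the same way *Mmp25* was called without any 1 of 10 libraries (PBS replicates 1, 2, 4, 5 and 8, RGLS4326 replicates 3, 4, 8 and 10 and UNT replicate 10), *Mmp14* without any 1 of 5 (PBS replicates 5, 7 and 8, RGLS4326 replicate 10 and UNT replicate 8) and *Mmp8* without PBS replicate 8. Leaving out PBS replicate 8 moved the count of lower members from 6 to 10.

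**Figure D5:**
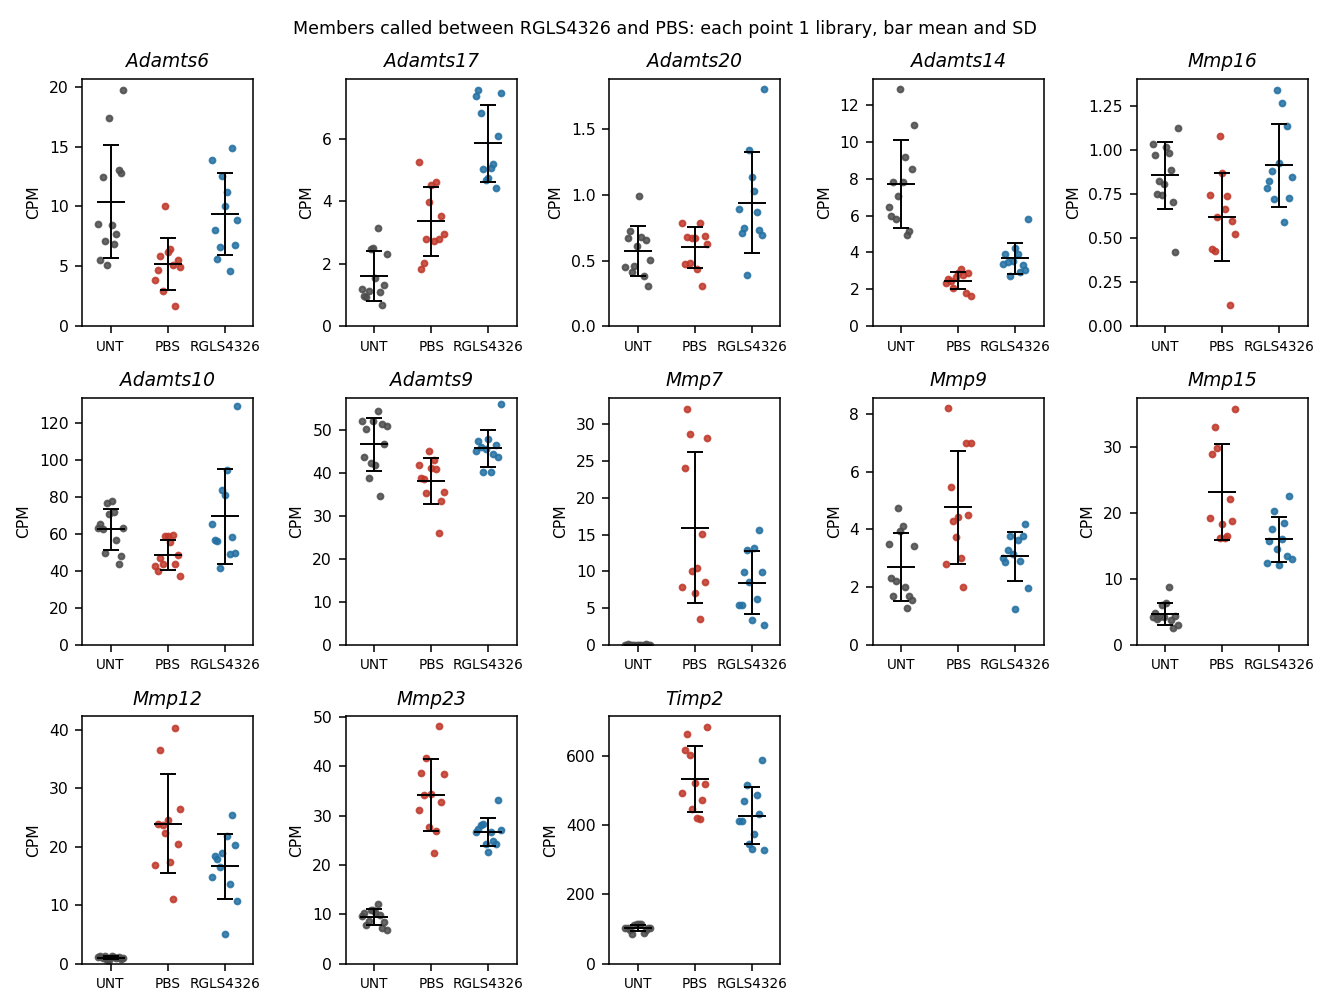
CPM in each kidney (points), with mean and SD (bars), for the 13 members called between RGLS4326 and PBS, the 7 higher ones first; each panel has its own axis from 0. In every panel the PBS and RGLS4326 points overlap, and *Mmp7*, *Mmp12*, *Mmp15*, *Mmp23* and *Timp2* stay above the UNT points in both *Pkd2*-KO groups.

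The drug differences were not called within most library sets. In sets 1 and 3 alone edgeR called 0 members in either direction, with 6 and 7 higher and 9 and 1 lower at an unadjusted p under 0.05, and in set 2 alone it called 2 higher and 1 lower. Of all genes tested in these fits, 0.261% were higher and 0.0826% lower in set 1, 13.6% and 11.9% in set 2, and 0.0% in either direction in set 3. A test of whether the drug difference varied among sets called 0 of 39 members, with 3 at an unadjusted p under 0.05, and 0 of 15233 genes, with 796 unadjusted. With the share of reads outside genes as a covariate, 0 members were called, with 4 higher and 6 lower at an unadjusted p under 0.05, and 0.511% of all genes were higher and 0.415% lower in that fit.

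The RGLS4326 kidneys were also set against UNT. Of the 39 tested members, 28 were higher, beside 40.8% of all tested genes, 5 were lower, beside 36.9%, and 6 were not called. Among the 30 that reached the filter minimum in at least 11 UNT libraries, 19 were higher, 5 lower and 6 not called. The 5 lower members were *Mmp13*, *Adamts14*, *Adamts15*, *Timp3* and *Timp4*. *Timp3* was at -0.53 ± 0.07 (adjusted p = 8.07e-09), and *Timp4* was at -0.70 ± 0.30 (adjusted p = 0.0339), a call that ended when any 1 of 7 libraries was left out (UNT replicates 1, 6 and 10 and RGLS4326 replicates 1, 5, 7 and 8) or RGLS4326 replicates 5, 6, 7 and 11 together. *Timp1* and *Timp2* were at 6.93 ± 0.25 and 2.06 ± 0.10 above UNT. The not called members were *Mmp9*, *Mmp16*, *Adamts6*, *Adamts8*, *Adamts9* and *Adamts10*.

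Matches to the miR-17 seed, searched as GCACTTT or as CACTTTA in the longest annotated 3′ UTR, were found in 8 of the 39 tested members (20.5%), near the 21.2% of 14193 tested genes with a 3′ UTR. They were *Adamts2*, *Adamts5*, *Adamts18*, *Mmp15*, *Mmp23*, *Mmp24*, *Timp2* and *Timp3*. After RGLS4326, edgeR called 3 of these 8 lower (*Mmp15*, *Mmp23* and *Timp2*, whose matches are printed above) and 5 neither way. Over all 3011 tested genes with a match, 26.0% were higher and 9.90% lower, and over the 11182 without one 12.1% and 21.6%. The 7 members that rose after RGLS4326 held no match in these transcripts, which says only that these letters are absent from the UTRs searched.

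Around the proteases, the known inducers of the family listed here were higher in PBS than in UNT in 18 of 18 cases, with a median log2 fold change of 2.58 beside 0.04 over all tested genes. The gene lists here and in the next paragraph, like the marker lists, were written with earlier results of these data known. Their counts are therefore no independent support. The inducers were AP-1 and ETS factors and cytokines, and *Runx1*, a runt-family transcription factor, was at 4.52 ± 0.14. After RGLS4326, 1 of the 18 was higher and 5 were lower, *Fosb*, an AP-1 subunit, by -0.74 ± 0.20 (adjusted p = 0.00825). Of all tested genes, 43.1% were higher and 39.0% lower in PBS than in UNT, and 15.3% were higher and 18.5% lower after RGLS4326. Beside these, of 16 tested activators, 7 (43.8%) were higher and 7 lower in PBS, with *Ctss*, a lysosomal protease that cuts elastin, at 4.79 ± 0.18, and after RGLS4326 1 was higher and 2 lower, with *Plaur*, the urokinase receptor, at -0.53 ± 0.11 (adjusted p = 0.00192). Of 15 other regulators, 10 were higher and 3 lower in PBS, *Cd44*, which docks MMPs at the cell surface, by 4.08 ± 0.13, and after RGLS4326 2 were higher and 1 lower, *Tfpi2*, a serine protease inhibitor of matrix, by 0.60 ± 0.13 (adjusted p = 0.00311).

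The lists of relatives and substrates stand beside the same shares of all tested genes, 43.1% higher and 39.0% lower in PBS and 15.3% higher and 18.5% lower after RGLS4326. Of 12 ADAM genes, the membrane-bound cousins, 9 were higher and 1 lower in PBS, with *Adam8* of leukocytes at 4.56 ± 0.26, and 3 were higher and 3 lower after RGLS4326, with *Adam22* at 0.63 ± 0.13 (adjusted p = 0.002). Of 7 ADAMTS-like genes, which have the repeats without the protease, 5 were higher in PBS and 2 were not called, *Thsd4*, which binds fibrillin, being higher by 2.03 ± 0.10. After RGLS4326, 1 of the 7 was higher, *Adamtsl1*, by 0.28 ± 0.11 (adjusted p = 0.0432), and 6 were not called. Of 18 tested substrates, 13 were higher and 4 lower in PBS, *Bgn*, a small matrix proteoglycan, by 2.63 ± 0.11, and 2 were higher and 1 lower after RGLS4326, the last being *Comp*, the cartilage oligomeric matrix protein that ADAMTS7 and ADAMTS12 cleave, at -1.30 ± 0.28 (adjusted p = 0.0024).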

How the data were processed

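Kidney mRNA libraries (TruSeq Stranded mRNA) of 34 mice were read from the gene counts deposited by the authors, 1 table per library. The processing notes name FastQC 0.11.2, Trim Galore, STAR, SAMtools 1.1, HTSeq 0.6.1 and Picard with build GRCm38/mm10, and the annotation version and strand setting of the counting are not given in the sources used here. Rows that name no gene were left out of library sizes and tests; reads outside genes made up 5.82% to 14.9% of uniquely aligned reads. All per-sample count columns were used. Groups were taken from the sample labels, and nothing states separate litters or days, so p-values measure the spread between these mice.

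Genes passing filterByExpr (minimum count 10) were fitted with edgeR 4.0.16 in R 4.3.3, with TMM factors, the quasi-likelihood F test and 1 model over the 3 groups. Calls were made at 0.05 after Benjamini-Hochberg adjustment across every tested gene, and 0.5 was the further fold limit on the log2 scale. DESeq2 1.42.0 was an alternative. The code was tested on simulated data. The members and gene lists were chosen with earlier results of these data known. Full values are given for the 4 TIMP genes, for every member called between RGLS4326 and PBS, and for the 8 higher and 8 lower members with the smallest p between PBS and UNT; of each gene list, the gene with the smallest p in each comparison is named. *Mmp3*, *Mmp8*, *Adamts4*, *Adamts8*, *Adamts12* and *Adamts18* were given extra values after these were seen. Alternatives were other scalings, filters, groups and covariates, the library sets alone, and, chosen after seeing the data, leaving out each library in turn PBS replicates 2 and 11 together, or RGLS4326 replicates 5, 6, 7 and 11 together. Same-numbered mice did not deviate together (correlations of -0.33 to 0.41). Lengths and 3′ UTRs are from GENCODE vM21, and promoters and microRNAs from RefSeq GRCm38.p6.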

Additional observations from a re-analysis of the deposited data

How the results depend on the processing

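The counts of called members were 29 higher and 8 lower between PBS and UNT, 7 and 6 between RGLS4326 and PBS, and 28 and 5 between RGLS4326 and UNT. DESeq2 and edgeR with RLE factors gave these counts again. Between RGLS4326 and PBS, upper quartile factors gave 7 and 8 and the library set as a covariate 7 and 7. Without a filter the counts between PBS and UNT were 32 and 9, and with at least 1 CPM in 11 libraries 27 and 7. The count lower in PBS than in UNT was 4 in library set 2 alone and 3 with the share of reads outside genes as a covariate. Between RGLS4326 and PBS, the count higher was 0, 2 and 0 in library sets 1, 2 and 3 alone and 0 with that covariate, and the count lower was 0, 1 and 0 in the sets, 0 with the covariate and 1 without PBS replicates 2 and 11. Without RGLS4326 replicates 5, 6, 7 and 11 the counts were 1 higher and 0 lower. Both were chosen after seeing the data. The sets hold fewer mice, and set 2 includes RGLS4326 replicates 5, 6 and 7. The covariate differed between PBS and UNT without overlap, so a fit with it cannot separate it from the group. The cause of the changed counts was not tested for the sets or for the covariate. Leaving out 1 library at a time, also chosen after seeing the data, gave 29 to 29 higher and 7 to 8 lower for PBS against UNT, 6 to 7 higher and 4 to 10 lower for RGLS4326 against PBS (4 without any 1 of RGLS4326 replicates 6 and 11 and PBS replicates 9 and 11, 10 without PBS replicate 8), and 28 to 29 higher and 4 to 5 lower for RGLS4326 against UNT. The replicate numbers do not pair the mice, and a replicate block gave 29 and 8, 7 and 5, and 28 and 5. Turned directions were, for PBS against UNT, *Mmp16* at 0.14 and *Adamts10* at 0.50 with the covariate, *Adamts20* at -0.31 in set 2 and *Timp4* at 0.024 in set 1. For RGLS4326 against PBS they were *Timp3* at -0.16 in set 2 and *Timp4* at 0.24 in set 3. For RGLS4326 against UNT they were *Mmp9* at -0.48 in set 2 and -0.033 with the covariate, *Adamts6* at 0.23 and 0.40 in the same settings, *Adamts9* at 0.053 in set 3 and 0.10 with the covariate, *Mmp16* at -0.17 and *Adamts10* at -0.16 in set 1, *Timp4* at 0.062 in set 3, and *Mmp16* at -0.069 and *Adamts10* at -0.21 without those 4 RGLS4326 libraries. The cause of these was not tested. Genes of a few reads per library, such as *Mmp7* in UNT kidney, are limited by depth.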
